A study of Mus musculus with 4 samples.

Results

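Messenger RNAs of 10 genes that act in decapping, in the first trimming of the poly(A) tail and in 5′-to-3′ decay were measured in mouse hippocampus. The genes are Dcp2, Dcp1a, Dcp1b, Edc3, Edc4, Ddx6, Lsm14a, Xrn1, Pan2 and Pan3, chosen by name from 52636 genes in the deposited tables. All 10 were found. The tissue came from wild-type C57BL/6 mice at postnatal day 40, and the series sought mRNAs bound by YTHDF2 by RNA immunoprecipitation sequencing. Of its 4 samples, 2 are YTHDF2 immunoprecipitates, which were not analysed here, and 2 are inputs, lysate RNA taken without immunoprecipitation. The 2 inputs form 1 group, so there is no contrast and no p-value. They are called the deeper (3334451 counts) and the shallower (2563069 counts), because the numbers in their column names are not both replicate numbers. The labels do not say whether they came from separate animals, so the spread between them may be technical. Their counts differed beyond sampling noise, with a chi-square of 11.6 per degree of freedom across 12504 genes, so they were not 1 library deposited as 2 columns.

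Most cytoplasmic mRNAs are degraded after their poly(A) tail has been shortened. The PAN2-PAN3 complex trims long tails and the CCR4-NOT complex shortens them further. The cap is then removed by DCP2 with its partner DCP1, helped by EDC3, EDC4, the helicase DDX6 and LSM proteins, and the exposed body is digested by the exonuclease XRN1. Many of these proteins gather in processing bodies, and in neurons related granules hold translationally silent mRNA. YTHDF2, the protein that was immunoprecipitated, binds mRNA that carries N6-methyladenosine and is known to bring in deadenylation. Whether the factors measured here act downstream of YTHDF2 was not tested. The values below are mRNA levels of the factors themselves, in whole-tissue lysate. More cells of a type and more RNA per cell cannot be told apart in such samples.

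Levels are given as CPM, counts per 1000000 of a library's total, for comparing libraries, and as the deposited FPKM, which also divides by a gene length, for comparing genes. Intervals on CPM are 95% Poisson intervals and cover counting error only. A gene with 0 counts could still stand at up to 3 counts, which is 0.8997 CPM in the deeper and 1.17 CPM in the shallower library. Ratios are log2 of the deeper over the shallower library on the scale log2(CPM + 0.5), after scaling with TMM factors (trimmed mean of M values; 0.951 for the deeper and 1.05 for the shallower), with exact binomial 95% intervals. These intervals, and the binomial intervals of ratios between genes, also cover counting error only. All 10 genes had a mean of at least 5 CPM, the minimum used throughout, and 8 had at least 20 CPM. Markers of hippocampal cell types were present. Granule cell markers summed to 310.4 and 311 CPM and astrocyte markers to 5650 and 4271 CPM, in the deeper and the shallower library. Slc17a7, Neurod6 and Wfs1, listed as pyramidal cell markers, summed to 1395 and 1671 CPM, in the same order. Whether Slc17a7 marks pyramidal cells alone among hippocampal neurons was not tested. Slc17a7 and Slc1a2 made up most of the pyramidal and the astrocyte sum, and Neurod6 (137 and 108 CPM) and Gfap (222 and 261 CPM) had the opposite order between the libraries.

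Together the 10 genes held 2375 counts in the deeper library and 1660 in the shallower, a sum of 712 and 648 CPM (680.0 ± 45.7 CPM; SD, n = 2). Ddx6 made up 43.7% of that sum in the deeper and 37.8% in the shallower library. Their median FPKM was 17.9, against 7.997 over the 14815 nuclear protein-coding genes with a count. The genes spanned a wide range. The highest mean was 36.9 times the lowest by CPM and 18.04 times by FPKM.

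**Figure D1:**
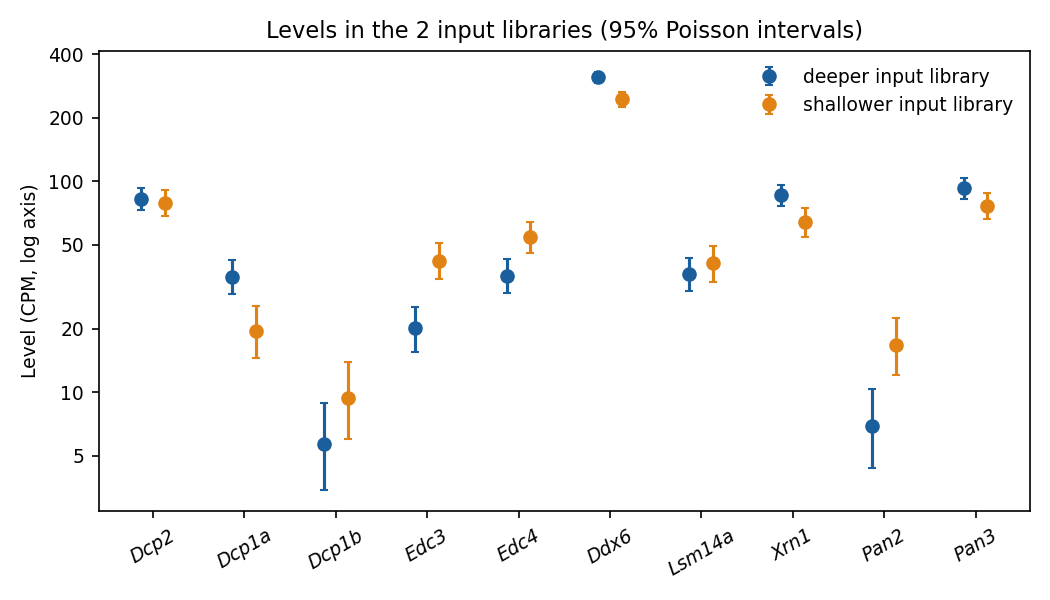
Level of each gene in CPM (log axis) in the deeper (blue, left of each pair) and the shallower (orange) input library, with 95% Poisson intervals. Ddx6 lay highest in both libraries, at 311 and 245 CPM, and Dcp1b and Pan2 lowest.

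The decapping enzyme gene Dcp2 stood at nearly the same CPM in both libraries. Dcp2 (ENSMUSG00000024472, chromosome 18, 44380502 to 44424969, plus strand) encodes the hydrolase that cleaves the cap. Of the 8616 bases of its main transcript, 1266 are coding and 7240 lie in the 3′ untranslated region. It had 275 counts, or 82.5 CPM (73.0 to 92.8), in the deeper library and 203 counts, or 79.2 CPM (68.7 to 90.9), in the shallower. The intervals overlapped, and the log2 ratio was 0.20 (-0.06 to 0.47). Its mean was 80.8 ± 2.31 CPM and 17.9 ± 0.513 FPKM (SD, n = 2), above 70.9% of detected nuclear protein-coding genes by FPKM.

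Its activator DCP1 is encoded by a pair of paralogues, and Dcp1a was the higher in both libraries. Dcp1a (ENSMUSG00000021962, chromosome 14, 30479535 to 30527063, plus strand, GRCm38) had 118 counts, or 35.4 CPM (29.3 to 42.4), in the deeper library and 50 counts, or 19.5 CPM (14.5 to 25.7), in the shallower. The intervals did not overlap, and the log2 ratio of 0.98 (0.51 to 1.51) was the highest of the 10 genes. Dcp1b (ENSMUSG00000041477, chromosome 6, 119175253 to 119221616, plus strand) had 19 counts, or 5.70 CPM (3.43 to 8.90), in the deeper library and 24 counts, or 9.36 CPM (6.00 to 13.9), in the shallower. Here the interval of the log2 ratio included equal levels (-0.54, -1.52 to 0.36).

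Per length, Dcp1a exceeded Dcp1b 7.90-fold (exact binomial interval 4.84 to 13.6) in the deeper library and 2.65-fold (1.598 to 4.51) in the shallower, by FPKM. The direction was shared. The intervals of the pair of libraries did not overlap, so the sizes differed by more than counting error alone. The size also rests on the length used. With the longest annotated transcript of each gene the fold was 4.69 (2.87 to 8.06) in the deeper and 1.57 (0.948 to 2.68) in the shallower library, where the interval then included equality. That transcript of Dcp1b, of 4209 bases, is a retained-intron form. With the transcripts of longest coding sequence the fold was 3.69 (2.26 to 6.35) in the deeper and 1.24 (0.747 to 2.11) in the shallower library. The 2 DCP1 genes summed to 21.1 FPKM in the deeper library and 14.2 FPKM in the shallower, beside 18.3 and 17.6 FPKM for Dcp2. Dcp2 over Dcp1a was 0.977 (0.784 to 1.22) in the deeper library and 1.70 (1.24 to 2.37) in the shallower, so Dcp2 was the higher in the shallower library alone by FPKM. With the longest transcripts it was 1.51 (1.21 to 1.89) in the deeper and 2.63 (1.92 to 3.66) in the shallower library, and Dcp2 was the higher in both.

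The counts of these paralogues can be told apart by sequence. Their coding sequences were identical at 64.3% of 1596 aligned bases, and the longest identical run was 15 bases. Translated, they were identical at 61.9% of aligned residues over the first 120 residues of DCP1A, and at 29.9% over the rest. Dcp1b shared 0% of its 31-base words with transcripts of any other gene, and Dcp1a shared 1.26%, all with the processed pseudogene CR555305.1. Each lies across a calcium channel gene on the opposite strand, Dcp1a across Cacna1d and Dcp1b across Cacna1c, with 0 shared exon bases. The most alike 60 coding bases, read 5′ to 3′ from GENCODE M21, differ at 13 positions, in capitals here.
Dcp1a: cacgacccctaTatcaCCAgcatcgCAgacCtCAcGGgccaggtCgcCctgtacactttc
Dcp1b: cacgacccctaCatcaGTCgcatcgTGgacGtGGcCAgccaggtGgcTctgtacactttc

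Both enhancer of decapping genes were lower in the deeper library, Edc4 with an interval that depended on base composition. Edc3 (ENSMUSG00000038957, chromosome 9, 57708540 to 57752499, plus strand) encodes a scaffold that binds DCP2 and DDX6. It had 67 counts, or 20.1 CPM (15.6 to 25.5), in the deeper library and 108 counts, or 42.1 CPM (34.6 to 50.9), in the shallower. The intervals did not overlap, and the log2 ratio was -0.91 (-1.39 to -0.47). Edc4 (ENSMUSG00000036270, chromosome 8, 105880881 to 105894908, plus strand) encodes a large scaffold that links DCP1 with DCP2. It had 119 counts, or 35.7 CPM (29.6 to 42.7), in the deeper library and 140 counts, or 54.6 CPM (45.9 to 64.5), in the shallower, with a log2 ratio of -0.46 (-0.83 to -0.11). With the trend of the ratio with GC content taken out, the value for Edc4 was -0.31 and its interval included equal levels (-0.68 to 0.05).

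Within each library Edc4 exceeded Edc3 by FPKM, 2.46-fold (1.81 to 3.36) in the deeper and 1.79-fold (1.38 to 2.33) in the shallower, and these intervals overlapped. Their means were 17.96 ± 5.33 FPKM for Edc4 and 8.95 ± 4.48 FPKM for Edc3 (SD, n = 2).

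Both genes share exon sequence with a neighbour, which limits their counts. The 3′ end of Edc3 overlaps that of Clk3, a kinase gene on the opposite strand, over 1284 bases or 22.1% of the annotated exon bases of Edc3. Clk3 had 13 counts in the deeper library and 30 in the shallower, so it too was lower in the deeper (log2 ratio -1.34, -2.50 to -0.46). Whether the counting used strand is not given in the sources used here, and reads of the overlap cannot be assigned without it. Edc3 and Clk3 together had 80 counts in the deeper and 138 in the shallower library, a log2 ratio of -1.01 (-1.44 to -0.61). Edc4 overlaps Nrn1l on the same strand over 458 exon bases, and Nrn1l had 0 counts in both libraries.

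Ddx6 was the most abundant of the 10 genes by every measure used. Ddx6 (ENSMUSG00000032097, chromosome 9, 44604892 to 44640731, plus strand) encodes a DEAD-box RNA helicase that represses translation and activates decapping. It had 1038 counts, or 311 CPM (293 to 331), in the deeper library and 627 counts, or 245 CPM (226 to 265), in the shallower. The intervals did not overlap, and the log2 ratio was 0.49 (0.35 to 0.64). Its mean of 53.5 ± 9.07 FPKM (SD, n = 2) lay above 90.5% of detected nuclear protein-coding genes.

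Lsm14a (ENSMUSG00000066568, chromosome 7, 34344646 to 34393315, minus strand) encodes a DDX6-binding repressor of translation. It had 121 counts, or 36.3 CPM (30.1 to 43.4), in the deeper library and 105 counts, or 41.0 CPM (33.5 to 49.6), in the shallower. The log2 ratio was the closest to 0 of the 10 genes (-0.03, -0.42 to 0.36). The antisense gene Gm12764, which shares 344 exon bases with Lsm14a, had 0 counts in both libraries. By FPKM Ddx6 exceeded Lsm14a 2.47-fold (2.05 to 3.01) in the deeper library and 1.72-fold (1.40 to 2.14) in the shallower. With the longest transcripts the fold was larger, 4.16 (3.45 to 5.07) in the deeper and 2.899 (2.35 to 3.60) in the shallower library. The paralogue Lsm14b, named after its values had been seen, had 103 counts in the deeper library and 173 in the shallower. Its 25.3 ± 13.3 FPKM and the 25.8 ± 2.21 FPKM of Lsm14a lay closer together than the libraries of Lsm14b did (SD, n = 2 each).

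The coding stretches below identify the helicase and its binding partners. In Ddx6 the capitals are the codons of the DEAD motif, residues 246 to 249 of 483, which names the helicase family. In Edc3 and Lsm14a they are the codons of the FDF motif, at residues 204 to 206 and 295 to 297, by which such proteins bind DDX6.
Ddx6: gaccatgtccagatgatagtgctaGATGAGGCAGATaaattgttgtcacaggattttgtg
Edc3: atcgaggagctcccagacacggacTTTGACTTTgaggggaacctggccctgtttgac
Lsm14a: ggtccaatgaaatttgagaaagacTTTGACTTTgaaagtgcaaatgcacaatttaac

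Counts were also assigned to a processed pseudogene of Ddx6. Gm13410 (ENSMUSG00000083116, chromosome 2, 24178834 to 24180317, plus strand) is annotated with 1415 bases. Its alignment with Ddx6 ran from the first to the last base of the Ddx6 coding sequence, with gaps. Outside the gaps, 1351 of 1413 aligned bases (95.6%) were identical, with an identical run of up to 233 bases. Of its 31-base words, 31.8% occur in Ddx6 transcripts, and these make up 5.48% of the words of Ddx6, whose transcripts also hold long untranslated regions. Gm13410 had 192 counts in the deeper library and 169 in the shallower, or 57.6 and 65.9 CPM, with a log2 ratio of -0.05 (-0.36 to 0.26). At 43.6 ± 4.18 FPKM it stood near Ddx6 itself.

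Reads in the shared stretches cannot be assigned between these genes, and the sources used here do not say how reads with several matches were treated. With the counts of both genes added, the deeper library had 1230 and the shallower 796, and the log2 ratio was 0.39 (0.26 to 0.52). Gm13410 overlaps no other annotated gene. The region of the DEAD codons shows how the copies differ, at 6 of 60 bases, in capitals.
Ddx6: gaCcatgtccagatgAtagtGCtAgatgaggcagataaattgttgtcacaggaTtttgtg
Gm13410: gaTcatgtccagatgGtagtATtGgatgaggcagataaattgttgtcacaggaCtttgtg

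Xrn1 (ENSMUSG00000032410, chromosome 9, 95954760 to 96057803, plus strand) encodes the cytoplasmic exonuclease that digests decapped RNA. It had 286 counts, or 85.8 CPM (76.1 to 96.3), in the deeper library and 164 counts, or 64.0 CPM (54.6 to 74.6), in the shallower. The intervals did not overlap, and the log2 ratio was 0.56 (0.29 to 0.85). Ddx6 over Xrn1 was almost the same in both libraries by FPKM, 2.82 (2.47 to 3.22) in the deeper and 2.97 (2.49 to 3.54) in the shallower. With the longest transcripts it was 6.14 (5.38 to 7.02) and 6.47 (5.44 to 7.73), and with the transcripts of longest coding sequence 3.29 (2.88 to 3.76) and 3.47 (2.91 to 4.14), in the deeper and the shallower library. Of the 6 partner ratios computed, Ddx6 over Xrn1 differed least between the libraries. The antisense genes Gm16794 and C78334 share 184 and 604 exon bases with Xrn1 and had 15 and 0 counts in the deeper library, against 2 and 0 in the shallower.

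The subunits of the PAN2-PAN3 deadenylase stood far apart. Pan3 (ENSMUSG00000029647, chromosome 5, 147430161 to 147548502, plus strand) encodes the adaptor that binds RNA and recruits the nuclease. It had 309 counts, or 92.7 CPM (82.6 to 104), in the deeper library and 196 counts, or 76.5 CPM (66.1 to 88.0), in the shallower, with a log2 ratio of 0.42 (0.16 to 0.69). Pan2 (ENSMUSG00000005682, chromosome 10, 128303335 to 128321358, plus strand) encodes the catalytic subunit. It had 23 counts, or 6.90 CPM (4.37 to 10.3), in the deeper library and 43 counts, or 16.8 CPM (12.1 to 22.6), in the shallower. The intervals did not overlap, and the log2 ratio of -1.09 (-1.94 to -0.38) was the lowest of the 10 genes.

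By FPKM Pan3 exceeded Pan2 29.5-fold (19.3 to 47.3) in the deeper library and 10.02-fold (7.17 to 14.3) in the shallower. Much of that fold rests on the length. Pan3 has 23 annotated transcripts, of which 10 are retained-intron forms and 6 are protein coding, and the FPKM length of 1817 bases is far below its longest transcript of 5541 bases. With the longest transcript of each gene, Pan3 over Pan2 was 12.2 (8.01 to 19.6) in the deeper library and 4.16 (2.97 to 5.92) in the shallower. That transcript of Pan2, of 5051 bases, is a retained-intron form. With the transcripts of longest coding sequence the fold was 10.8 (7.05 to 17.3) in the deeper library and 3.66 (2.62 to 5.21) in the shallower. The adaptor was thus the higher in both libraries under each length tried, by an amount that was not settled.

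**Figure D2:**
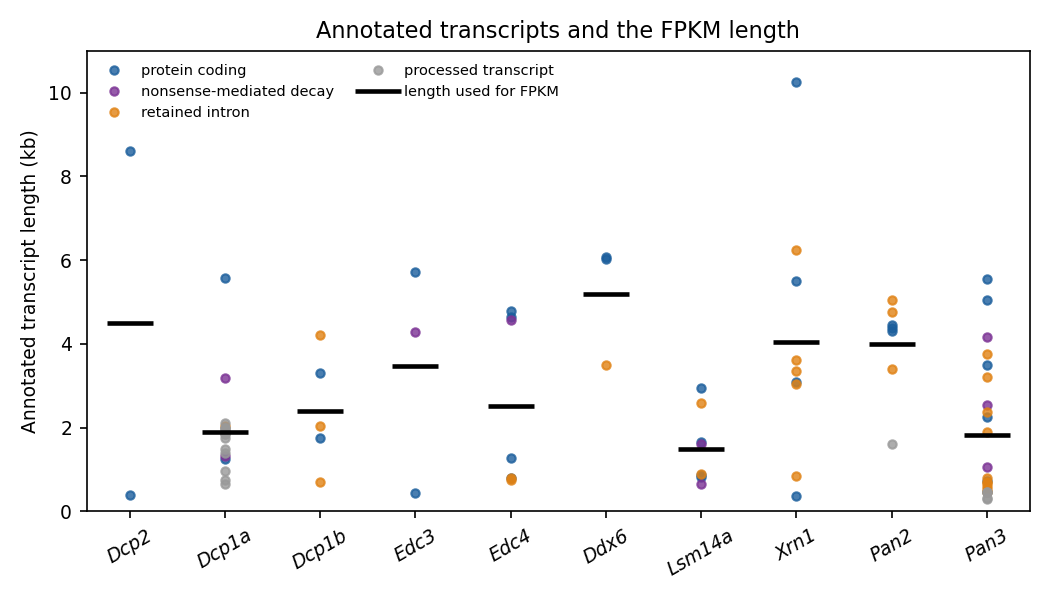
Length in kilobases of every annotated transcript of the 10 genes (points, coloured by GENCODE M21 transcript type) and the length that the deposited FPKM divides by (black bars). The bar lies at the mean of the points, at 1817 bases for Pan3 and 1889 for Dcp1a, well below their longest coding transcripts of 5541 and 5576 bases.

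The FPKM length was within 1 base of the mean length of a gene's annotated transcripts for all 10 genes, and for 90.6% of genes with a count. Short annotated fragments therefore raise FPKM. The longest transcript was 3.05 times this length for Pan3, 2.95 times for Dcp1a and 2.54 times for Xrn1, but 1.26 times for Pan2 and 1.17 times for Ddx6. The median was 1.91 over the 10 genes and 1.83 over the 10452 nuclear protein-coding genes at 5 CPM or more, so the set as a whole was not unusual.

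By FPKM the order was Ddx6 (53.5 ± 9.07), Pan3 (46.5 ± 6.30), Lsm14a (25.8 ± 2.21), Xrn1 (18.6 ± 3.82), Edc4 (17.96 ± 5.33), Dcp2 (17.9 ± 0.513), Dcp1a (14.5 ± 5.94), Edc3 (8.95 ± 4.48), Dcp1b (3.13 ± 1.08) and Pan2 (2.96 ± 1.75; SD, n = 2 each). Of the 9 neighbouring pairs in that order, 3 had library values that did not overlap, namely Pan3 over Lsm14a, Lsm14a over Xrn1 and Edc3 over Dcp1b. The library values of the other neighbours overlapped. Compared within each library, 4 of the 9 pairs kept their order in both. Ddx6 and Pan3 were among these, at 59.9 and 51.0 FPKM in the deeper library and 47.1 and 42.1 FPKM in the shallower. The remaining neighbours, among them Xrn1, Edc4, Dcp2 and Dcp1a, changed order between the libraries.

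Divided by the longest transcript, Ddx6 (45.8 ± 7.77 CPM per kilobase) stood clear of Pan3 (15.3 ± 2.07), and the values of Pan3 overlapped those of Lsm14a (13.1 ± 1.12; SD, n = 2 each). Ddx6 was first and Pan3 second under each of the 3 lengths tried, and Dcp1b and Pan2 took the last places. Between the 2 transcript lengths Xrn1 moved most. It stood at 7.30 ± 1.502 CPM per kilobase with its longest transcript of 10256 bases, and at 13.6 ± 2.80 with the 5499 bases of the transcript with the longest coding sequence.

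**Figure D3:**
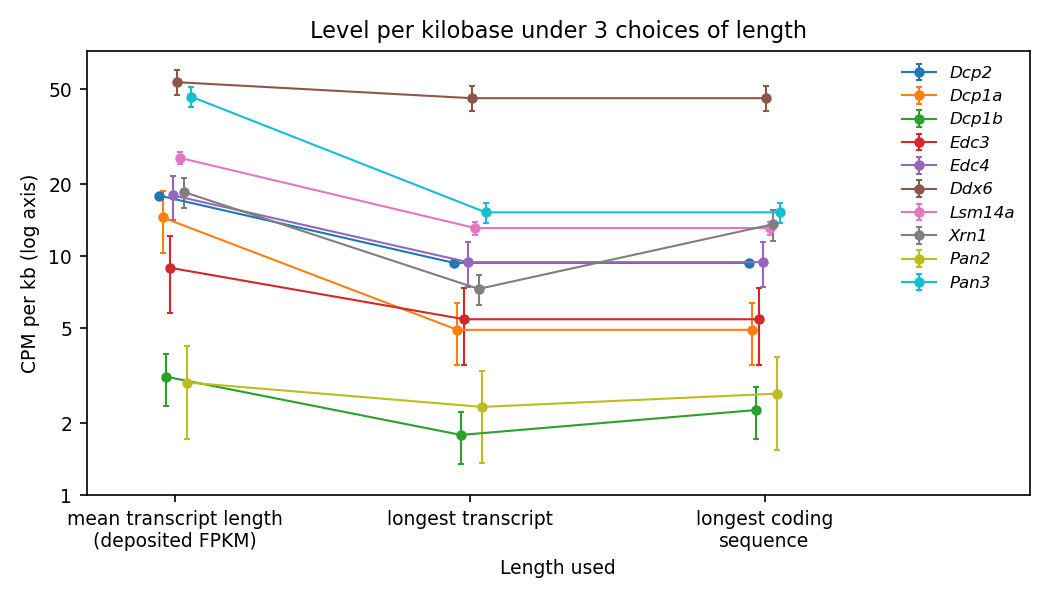
Level in CPM per kilobase (log axis) of the 10 genes under 3 choices of gene length. Points are means and bars run between the 2 input libraries. Ddx6 stays on top, Pan3 stands at 46.5 with the deposited length and at 15.3 with the longest transcript, and Dcp1b and Pan2 stay lowest.

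Single members differed between the libraries in both directions. The 95% interval of the ratio left out equal levels for 7 of the 10 genes, with Dcp1a, Ddx6, Xrn1 and Pan3 higher in the deeper library and Edc3, Edc4 and Pan2 lower. Across all 12218 genes at 5 CPM or more this share was 36.5%, made up of 18.6% higher and 17.9% lower. Well-counted genes have narrower intervals. At 20 CPM or more the share was 6 of 8 members and 43.1% of 6915 genes. Pan2 alone was 2-fold or more apart, 1 of 10 genes, against 9.53% of all genes (3.64% higher and 5.88% lower in the deeper) and 16.8% of those between 5 and 20 CPM, where Pan2 lies. At 20 CPM or more, 0 of 8 members and 3.93% of all genes were that far apart. A limit of 1.5-fold was passed by 3 members (Pan2, Dcp1a and Edc3) and by 25.9% of all genes. Apart from the share of intervals, the counts lay near those of all genes. The median log2 ratio was 0.09 for the 10 genes and 0.00 for all genes, and the median size of the ratio, without its sign, was 0.51 and 0.33.

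By role, the DCP2 and DCP1 genes summed to 124 and 108 CPM in the deeper and the shallower library, the enhancers to 55.8 and 96.8 CPM, Ddx6 and Lsm14a to 348 and 286 CPM, and Pan2 and Pan3 to 99.6 and 93.2 CPM. Pan3 was higher in the deeper library where Pan2 was lower, so their sum hid opposite differences. Among 3 astrocyte markers, Slc1a2 (5277 and 3899.6 CPM) and Aqp4 (151 and 109.6 CPM) had intervals above equal levels in the deeper library, and Gfap did not. Among 3 microglia markers, Cx3cr1 (36.9 and 30.4 CPM) and P2ry12 (21.3 and 10.9 CPM) did, and Csf1r (87.0 and 97.9 CPM) did not. Of other lists, Prox1, Neurod6, Gad2 and Mbp also had intervals above equal levels in the deeper library, and Slc17a7 and Mog had intervals below. The other markers of granule cells, pyramidal cells, interneurons and oligodendrocytes had intervals that included equal levels. The part of any cell type in the differences between libraries was not tested. The ratio moved with base composition. Transcript GC content ran from 42.6% for Xrn1 and 42.7% for Dcp2 to 52.5% for Dcp1b and 55.5% for Edc4, and its correlation with the log2 ratio over the 10 genes was r = -0.69 (Spearman's rho = -0.65). Over nuclear protein-coding genes rho was -0.32. These genes come from the same 2 libraries, so this is a description. With the trend over all nuclear protein-coding genes taken out, 9 of 10 members kept their sign, Dcp2 being the exception at -0.03. Dcp1a (0.94), Edc3 (-0.85) and Pan2 (-1.03) hardly moved, and Ddx6 (0.29) and Xrn1 (0.33) came closer to 0.

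**Figure D4:**
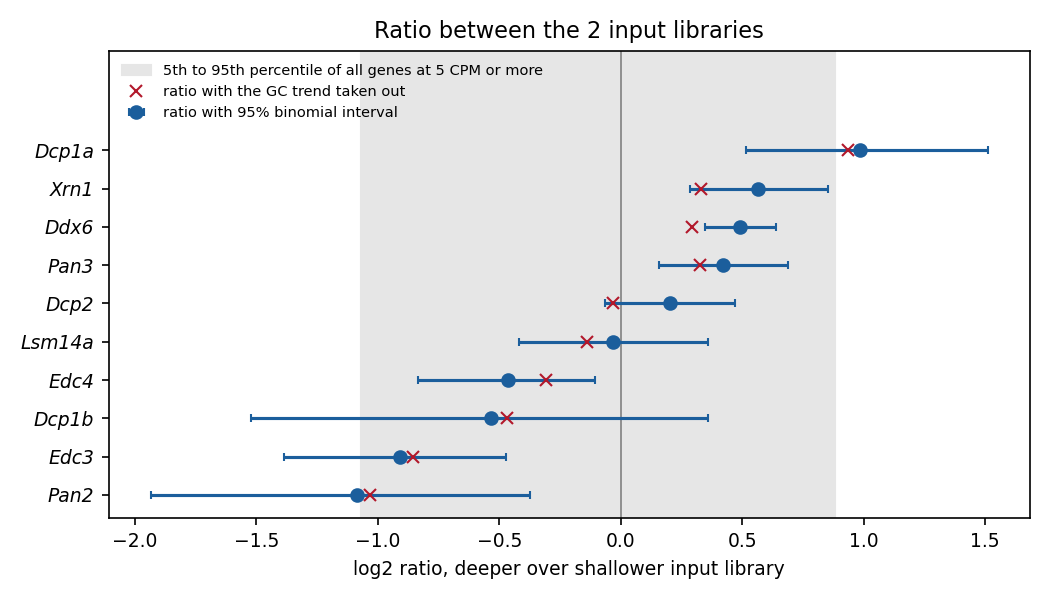
Log2 ratio of the deeper over the shallower input library for each gene, with exact binomial 95% intervals (blue) and with the trend with GC content taken out (red crosses). The grey band holds the 5th to the 95th percentile of all 12218 genes at 5 CPM or more. Dcp1a at 0.98 and Pan2 at -1.09 lie at its edges, just outside it, and the other 8 genes lie inside.

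Other genes of mRNA decay, in 10 lists, are set beside the 10 genes. Their levels are given by the deposited FPKM alone, and no other gene length was tried for these lists. Of 74 matched genes in these lists, 66 had a mean of at least 5 CPM. Among those, Exosc2 was 2-fold or more higher and Exosc10 2-fold or more lower in the deeper library, both named after their values had been seen, and the interval left out equal levels for 9 of 66 in each direction. The shares over all genes were 3.64% and 5.88% for the 2-fold limit, higher and lower, and 18.6% and 17.9% for the interval. Median FPKM over the 74 genes was 12.8, beside 17.9 for the 10 members. The 11 CCR4-NOT deadenylase genes, whose products take over tail shortening from PAN2-PAN3, had a median of 20.3 FPKM, with the scaffold gene Cnot1 at 50.9 ± 5.44 FPKM and the deadenylase gene Cnot6l at 28.4 ± 6.58 FPKM (SD, n = 2 each). Their summed level differed little between libraries, at 560 CPM in the deeper and 564 CPM in the shallower.

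Genes of the cytoplasmic LSM ring and PAT1, which bind shortened tails and activate decapping, were low. Of 9 genes 5 reached 5 CPM, and their median was 4.96 FPKM, with Patl1 at 4.96 ± 0.691 FPKM and Lsm6 at 7.04 ± 1.33 FPKM. How much sequence the LSM genes share with other genes was not measured here. Partners of DDX6 and of the decapping enzyme had a median of 28.2 FPKM over 8 genes. Among them the translational repressor gene Gigyf2 had 60.2 ± 7.62 FPKM and Pnrc1, whose product is known to bind the decapping enzyme, 83.4 ± 4.09 FPKM (SD, n = 2 each). The 5 other cap hydrolase genes had a median of 5.58 FPKM, with Nudt3 (333 ± 48.5 FPKM) far above Dxo (12.2 ± 2.25 FPKM) and the rest.

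Genes of decay from the 3′ end had a lower median than the 10 members. The list of exosome and other 3′-to-5′ decay genes had a median of 5.34 FPKM over 17 genes. It was led in CPM by the helicase gene Skiv2l (27.1 ± 5.37 FPKM) and the exonuclease gene Dis3l2 (8.997 ± 0.433 FPKM). Xrn2, the nuclear relative of Xrn1, had 10.5 ± 4.65 FPKM, against 18.6 ± 3.82 FPKM for Xrn1 (SD, n = 2 each). The remaining lists had medians between 15.3 and 43.6 FPKM. Argonaute and GW182 genes, which tie microRNAs to deadenylation and decapping, had a median of 21.1 FPKM, with Ago2 at 19.5 ± 0.405 and Tnrc6b at 14.9 ± 1.63 FPKM. Nonsense-mediated decay genes had a median of 15.3 FPKM, with Smg1 at 54.2 ± 4.16 FPKM. Poly(A)-binding protein genes and their partners had a median of 43.6 FPKM, with Pabpc1 at 44.2 ± 3.92 and Paip2 at 51.4 ± 5.47 FPKM. The YTHDF readers had a median of 22.7 FPKM, Ythdf3 standing at 22.7 ± 6.04 and Ythdf1 at 30.7 ± 0.983 FPKM.

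**Figure D5:**
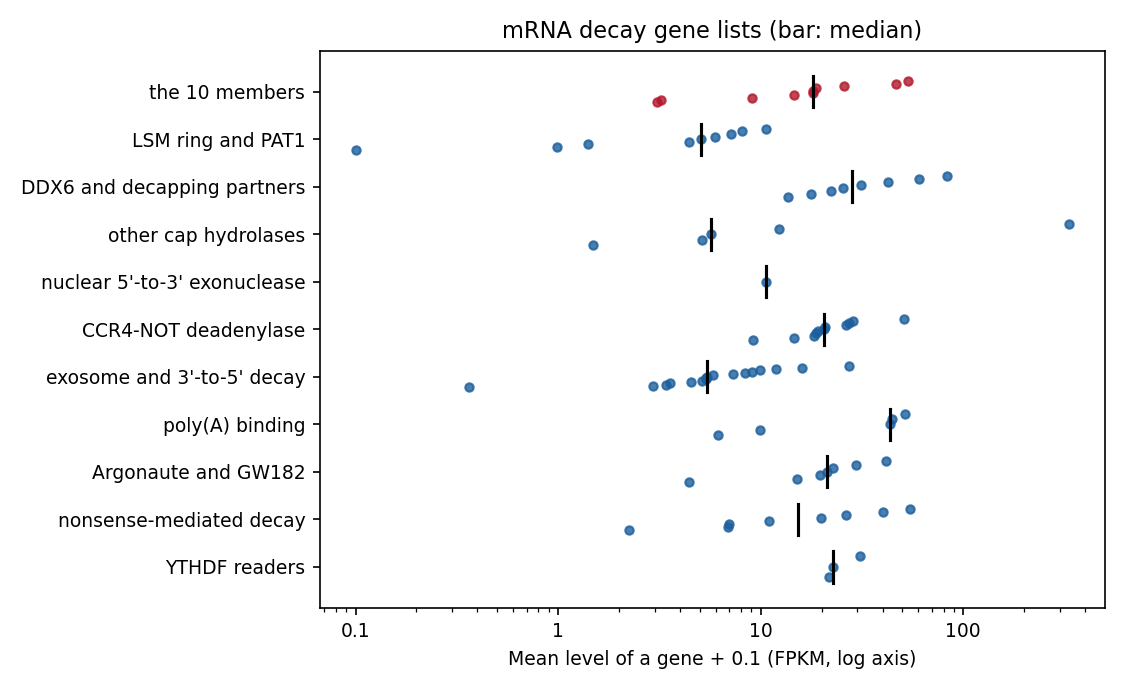
Mean FPKM plus 0.1 (log axis) of each gene in the 10 members (red) and in 10 other lists of mRNA decay genes (blue), with the list median as a black bar. The median of the members, 17.9 FPKM, lies near that of the CCR4-NOT genes (20.3). It lies above those of the LSM ring and PAT1 (4.96) and of the exosome and other 3′-to-5′ decay genes (5.34).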

How the data were processed

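The authors deposited raw read counts per Ensembl gene and FPKM values for the same genes. Per the submitters' processing notes, the tools included BWA 0.7.12, HOMER and MACS2 2.1.0, with GRCm38 as the build. The sources used here do not give the read counter, its annotation, or its settings for strand and multiple matches. Names, positions and transcript sequences came from GENCODE M21 (GRCm38), which held 52489 of the 52636 gene IDs. The main transcript of a gene is that with the longest coding sequence. Both input columns were used and 0 columns of per-library values were left out. CPM used the total of all genes. TMM factors were computed in edgeR 4.0.16 from genes at 5 CPM or more on average, and DESeq2 1.42.0 size factors were an alternative. The calculation of ratios and their intervals was tested on simulated counts, for genes at 20 CPM or more. The simulated counts were split binomially, as the intervals assume, so spread beyond counting error was not covered. Intervals were computed with scipy 1.17.1. The GC trend was the median ratio in 20 bins of GC content, interpolated between them. Sequence sharing was measured over all 31-base words of a gene's transcripts, on both strands. Members and gene lists were chosen with earlier results of these data known. Of each list the 2 genes with the highest mean CPM are named, except 1 that is not reported here. Levels of genes are compared by FPKM. With 1 group no test was possible.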

Additional observations from a re-analysis of the deposited data

How the results depend on the processing

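No paired analysis was possible because the tables used here hold 1 group and their columns carry no replicate number of the labels. The summed level of the 10 genes, 680.0 CPM, was 925 CPM when totals were taken over nuclear protein-coding genes alone, and ran from 648 to 712 CPM when either library was left out. The number of genes at least 2-fold apart, 1 in the main setting, was 2 without TMM factors (Pan2 and Edc3), 2 with 0 added to CPM (Pan2 and Dcp1a), 0 with 2 added, 0 at a minimum of 20 CPM, which leaves out Pan2, and 3 at a limit of 1.5-fold. It stayed at 1 with DESeq2 size factors or after removal of the GC trend. Of all genes, 9.53% were that far apart in the main setting, 10.7% without factors, 10.6% with 0 added and 6.91% with 2 added. The share was 9.53% with DESeq2 size factors, 8.94% after removal of the trend, 3.93% at 20 CPM or more and 25.9% at 1.5-fold. The number of genes whose interval left out equal levels was 6 after removal of that trend, Edc4 being the one lost, and 7 without factors and with DESeq2 size factors. Of all genes it was 36.5% in the main setting, and the share under these other settings is not given here. The median log2 ratio of the 10 genes ran from -0.09, after removal of the trend, to 0.09, and was -0.06 without factors, where that of all genes was -0.14, so no direction is read from it. Dcp2 over Dcp1a by FPKM, 1.34 as a mean over both libraries, was 0.977 without the shallower library and 1.70 without the deeper. Adding the counts of Gm13410 to Ddx6 and of Clk3 to Edc3 was chosen after seeing the data, and both ratios kept their direction. Ddx6 and Pan3 kept ranks 1 and 2 under all 3 gene lengths. With only 2 libraries, Dcp1b and Pan2, with 19 to 43 counts each, are the least precise.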

Other observations

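A core form of the methylation consensus was looked for near the stop codons and over the whole of the 10 transcripts. The letters GGACT, the DNA spelling of a common core of the N6-methyladenosine motif, were searched on the sense strand of each gene's main transcript. Within 200 bases on either side of the stop codon, 1 of the 10 transcripts had a match, against 40.9% of the 9354 nuclear protein-coding genes at 5 CPM or more with such a window. That transcript is Pan2, where the match starts 73 bases before the stop codon. It is shown with its motif in capitals.
Pan2: gggccgaaagatGGACTggaaggtgcctg

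Over whole transcripts the count ran from 1 match in Dcp1a to 8 in Pan2, with a median of 0.709 per kilobase for the 10 genes and 1.04 for nuclear protein-coding genes at 5 CPM or more. Median GC content of the main transcripts was 47.7% for the 10 genes and 50.5% for those genes. Its part in the number of matches was not tested. A match is a description of letters and not a methylated or bound site, and the other spellings of the consensus were not searched. Ddx6 had 7 matches, Dcp2 and Edc3 had 6 each and Edc4 had 5.

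RefSeq promoter windows of 300 bases (GRCm38.p6) matched 8 of the 10 genes. Observed over expected CpG ran from 0.389 for Edc4 to 1.11 for Lsm14a, with a median of 0.812, against 0.789 over 8172 genes. GC content in these windows ran from 52.7% for Pan2 to 70.7% for Pan3, with a median of 58.3%, against 62.3%.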
